A study of Mus musculus with 6 samples.

Results

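The Hedgehog pathway genes described here are 9 genes, *Gli1*, *Gli2*, *Gli3*, *Ptch1*, *Smo*, *Hhip*, *Sufu*, *Gas1* and *Cdon*, taken by gene symbol from the 55416 genes of the count table. All 9 were in the table and 7 of them had enough counts to be tested, that is, 2 or more libraries with 10 or more counts; *Gli1* and *Hhip* did not. RNA-Seq was performed on endothelial cells (ECs) sorted by membrane GFP (mGFP) from ventricles of mouse hearts at E15.5 (embryonic day), with 3 libraries for each of 2 genotypes. ControlΔEC embryos were Pdgfb-CreERT2/+; Wt1-+/+; R26-mTmG/+, and Wt1KOΔEC embryos were Pdgfb-CreERT2/+; Wt1-LoxP/LoxP; R26-mTmG/+. Both genotypes thus carried the tamoxifen-inducible Cre driven by *Pdgfb* and the mTmG reporter, which turns from membrane Tomato to mGFP once Cre has acted, and the dams of both were gavaged with tamoxifen at 75 mg/kg between E11.5 and E13.5. Controls and mutants were littermates by the breeding scheme, and the sort kept only cells in which Cre had recombined the reporter, which does not by itself show that *Wt1* was recombined in each of them. The comparison asks how the loss of *Wt1*, a zinc finger transcription factor, in coronary ECs affects their transcripts, here those of the Hedgehog pathway.

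Hedgehog ligands are lipid-modified secreted proteins that bind the receptor PTCH1, with GAS1, CDON and BOC as co-receptors. Without ligand, PTCH1 holds back SMO, SUFU retains the GLI transcription factors, and GLI3 is largely processed to a repressor; once ligand is bound, SMO acts at the primary cilium and GLI factors activate targets that include *Gli1*, *Ptch1* and *Hhip*. In the embryonic heart, Hedgehog signalling is known for its part in the growth of the coronary vessels, where it acts on cardiomyocytes and perivascular cells.

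The promoters of 2 members are shown, those of *Gli3*, which had the smallest p-value of the members, and of *Ptch1*, a target of the pathway that lies on the same chromosome. Each window runs 5′ to 3′ from 250 bases before the start site to 50 after it, is taken from RefSeq on GRCm38.p6 and spans chr13:15463473-15463772 on the plus strand for *Gli3* and chr13:63565686-63565985 on the minus strand for *Ptch1*. Capitals mark a match to GCGNGGGNG, a form of the GC-rich motif bound by WT1 and by the EGR factors.
Gli3: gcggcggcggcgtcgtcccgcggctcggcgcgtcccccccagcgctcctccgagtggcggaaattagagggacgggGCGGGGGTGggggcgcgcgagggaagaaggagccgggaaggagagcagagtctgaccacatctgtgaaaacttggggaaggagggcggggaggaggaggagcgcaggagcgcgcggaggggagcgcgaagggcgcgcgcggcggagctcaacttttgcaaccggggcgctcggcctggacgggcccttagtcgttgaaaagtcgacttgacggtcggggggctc
Ptch1: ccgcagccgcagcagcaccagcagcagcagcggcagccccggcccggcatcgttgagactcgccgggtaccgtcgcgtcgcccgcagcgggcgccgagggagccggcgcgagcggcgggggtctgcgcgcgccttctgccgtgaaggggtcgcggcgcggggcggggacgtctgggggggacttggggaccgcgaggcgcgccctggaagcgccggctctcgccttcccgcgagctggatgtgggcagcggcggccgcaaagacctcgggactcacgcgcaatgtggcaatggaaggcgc
Windows were found for 8 of the 9 members. On either strand GCGNGGGNG occurred in those of *Gli2*, *Gli3*, *Smo* and *Hhip*, 4 of 8, and in 12.3% of all 32851 windows. In the *Gli3* window the match, GCGGGGGTG, began 174 bases before the start site, and the *Ptch1* window held none, although its GC content was 76.3% against 71.0% for *Gli3*. The looser string GNGGGGGNG, which overlaps the first, occurred in 5 of the 8 and in 18.8% of all windows. The GLI motif GACCACCCA and its core CCACCCA, contained in it, occurred in 0 of the 8 members' windows and in 0.253% and 9.30% of all windows. The 4 windows that matched GCGNGGGNG had GC contents of 67.3 to 73.7%, and the shares over all windows were not matched for GC content. No enrichment is thus read from these shares. These are matches of letters, not measured binding.

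Libraries held 26037324 to 44779020 counts, so that the 3 counts taken as the floor of detection corresponded to 0.0608 to 0.119 CPM (counts scaled to a common library size by TMM). *Wt1* itself fell by 2.91 on the log2 scale (SE 0.22; adjusted p = 0.00319, edgeR's quasi-likelihood test), from a mean of 134 to 17.9 CPM. All 10 endothelial markers were tested, and their summed level was 5485 to 7136 CPM in ControlΔEC and 6013 to 6796 CPM in Wt1KOΔEC libraries. Markers of other cells were also present, and none of their lists had a defining gene at 0 in every library. Some of these genes have another reading in the study. It counts *Rgs5* and *Kcnj8* of the mural list among arterial genes, and *Col1a1*, *Col3a1* and *Dcn* of the fibroblast list among venous markers. Summed levels did not overlap between genotypes for mural cell markers (477 to 643 CPM in ControlΔEC, 329 to 389 CPM in Wt1KOΔEC; 9 of 10 tested), fibroblast markers (724 to 1064 and 1456 to 1642 CPM; 10 of 10), epicardial markers (40.2 to 52.7 and 67.9 to 85.2 CPM; 10 of 10), endocardial markers (287 to 392 and 420 to 506 CPM; 6 of 6). They overlapped for cardiomyocyte markers (98.6 to 144 and 83.5 to 186 CPM; 6 of 7) and macrophage markers (244 to 757 and 183 to 263 CPM; 6 of 6). All 6 macrophage markers were nonetheless lower in Wt1KOΔEC, with a median log2 fold change of -0.92. For 4 of these 6 the unadjusted p was under 0.05 in edgeR, beside 13.1% of all genes. The 6 cardiomyocyte markers tested were higher, with a median of 0.18 and 1 at such a p. Of the fibroblast markers, 8 were higher and 2 lower, *Postn* and *Dpt*. The 18S rRNA gene *Rn18s* and the mitochondrial genes took 19.8 to 20.7% of counts in ControlΔEC and 25.6 to 28.2% in Wt1KOΔEC libraries. The part of these shifts in the results below was not tested. Library identifiers in the labels also follow genotype, and cannot be told apart from it.

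Of the 7 members tested, 0 were differentially expressed in edgeR (adjusted p under 0.05 and a fold change above 0.58 on the log2 scale in either direction), where 12 of all 16296 genes tested were, a background of 0.0736%. By unadjusted p under 0.05, 1 of 7 was lower in Wt1KOΔEC, *Gli3*, against a background of 7.12% of genes lower and 13.1% in either direction. *Gli3* was also the 1 member whose 3 libraries of one genotype all lay outside those of the other, against 8.97% of all genes lower in this way and 19.3% in either direction. DESeq2, run at its defaults on the whole table, called 1 member, *Gli3*, against a background of 2.63% of 15886 genes lower and 4.83% in either direction. *Gli2* passed the filter on low counts through 2 control libraries alone, so that its direction was fixed by the filter. The other 6 members tested, 3 higher and 3 lower, had a median log2 fold change of 0.02, beside -0.03 over all genes tested.

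**Figure D1:**
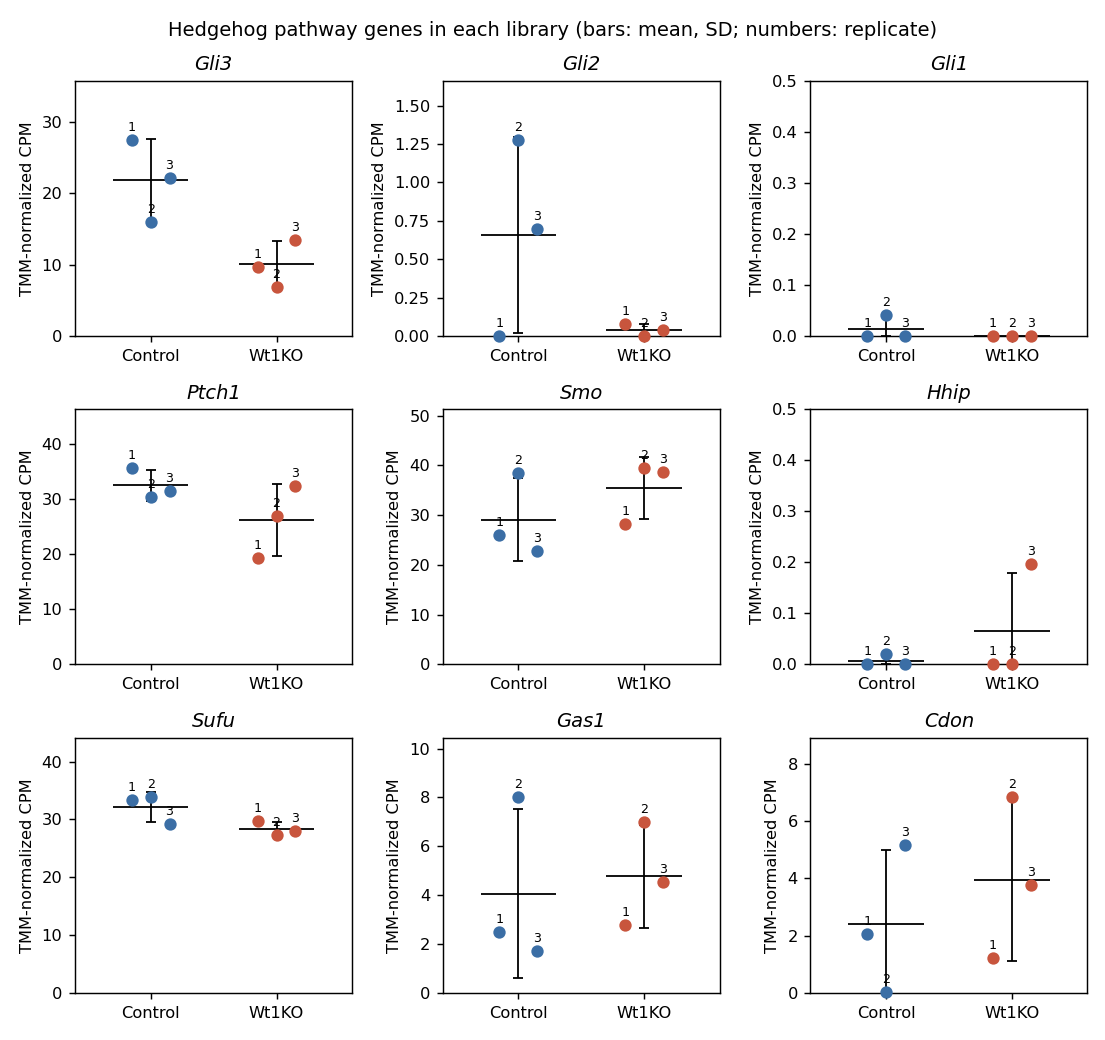
TMM-normalized CPM (vertical axis, a separate scale in each panel) of the 9 Hedgehog pathway genes in the 3 ControlΔEC and 3 Wt1KOΔEC libraries, with points numbered by replicate, horizontal bars at the mean and error bars of 1 SD that stop at 0. The 3 mutant libraries lie below the 3 control libraries for *Gli3*, whereas the genotypes overlap in the other 8 panels, and *Gli1* and *Hhip* stay at 5 counts or fewer in every library.

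The GLI transcription factors carry the signal to the nucleus. *Gli3* (chr13:15637809-15904611, plus strand, GRCm39), whose product acts mainly as a repressor in the absence of ligand, was measured at 27.5, 16.0 and 22.1 CPM in ControlΔEC replicates 1 to 3 and at 9.72, 6.88 and 13.5 CPM in Wt1KOΔEC replicates 1 to 3. Every mutant library was below every control library. The means were 21.9 ± 5.76 and 10.0 ± 3.32 CPM (SD, n = 3 each), and edgeR gave a log2 fold change of -1.13 (SE 0.33, 95% interval -1.88 to -0.37), with an unadjusted p of 0.00799 and an adjusted p of 0.233. An exact two-sided permutation test over the 6 libraries gave p = 0.1, the smallest p that 3 against 3 can give. Under DESeq2 its adjusted p was 0.0375 on the whole table and 0.0606 when only the genes tested by edgeR were fitted, where its unadjusted p also moved, from 0.00169 to 0.00285. Whether *Gli3* counts as differentially expressed thus differs with the tool and with the genes fitted. The study, which used DESeq2, reported *Gli3* as downregulated from these same libraries, whereas edgeR did not call it here. Its direction here is thus not independent of that report. A lower level in a bulk sample can come from fewer cells that hold the transcript or from less of it per cell, and the data cannot tell these apart.

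*Gli3* has 10.0 kb of exonic sequence, and transcripts of this length had lower fold changes than short ones. Among genes with a mean of at least 5 CPM, the median log2 fold change was -0.18 in the longest of 4 length classes, to which *Gli3* belongs, and 0.19 in the shortest. With an offset for exonic length and GC content, the log2 fold change of *Gli3* was -1.06. The lncRNA *Gm6556* shares 513 exonic bases with *Gli3* on the other strand and had 0 to 4 counts per library, against 245 to 1231 counts for *Gli3*.

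*Gli2* (chromosome 1), the main activator of the family, was close to the floor in the mutants. ControlΔEC libraries held 0, 63 and 20 counts of *Gli2* and Wt1KOΔEC libraries 3, 0 and 1. The control libraries disagreed among themselves, with replicate 1 at 0 and replicate 2 the highest, so the genotypes overlapped. The edgeR test gave an unadjusted p of 0.103 and an adjusted p of 0.500. *Gli2* passed the filter on low counts through ControlΔEC replicates 2 and 3 alone, so its direction was fixed by the filter. No size of change is drawn from these counts.

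*Gli1* (chromosome 10), the family member whose own transcription reports pathway activity, had 2 counts in ControlΔEC replicate 2 and 0 in each of the other 5 libraries. *Gli1* transcripts were thus at or under the floor in all 6 libraries, and no difference between genotypes was detectable at this depth. *Arhgap9*, which shares 103 exonic bases with *Gli1* on the opposite strand, had 1 to 177 counts in the same libraries, and SMART-seq2 does not record the strand.

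*Sufu* (chromosome 19), the inhibitor that binds GLI proteins in the cytoplasm, varied little between libraries. Its levels were 33.4, 33.9 and 29.2 CPM in ControlΔEC and 29.7, 27.3 and 28.0 CPM in Wt1KOΔEC. ControlΔEC replicate 3 fell between the mutant libraries, so the groups overlapped. Its log2 fold change was -0.18 (SE 0.19, 95% interval -0.61 to 0.25; adjusted p = 0.778 in edgeR).

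At the cell surface, *Ptch1* (chr13:63656142-63721412, minus strand, GRCm39), both the receptor that restrains SMO and a target of GLI factors, stood at 35.6, 30.3 and 31.5 CPM in ControlΔEC and 19.3, 27.0 and 32.3 CPM in Wt1KOΔEC. Mutant replicates 1 and 2 were below all control libraries, but mutant replicate 3 was above 2 of them. The means were 32.5 ± 2.75 and 26.2 ± 6.56 CPM (SD, n = 3 each) and the log2 fold change was -0.31 (SE 0.24, 95% interval -0.85 to 0.23; adjusted p = 0.665 in edgeR).

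*Smo* (chromosome 6), the transmembrane transducer that PTCH1 restrains, had the highest mean CPM of the members over the 6 libraries, at 32.3. It was at 26.0, 38.5 and 22.7 CPM in ControlΔEC and at 28.3, 39.4 and 38.6 CPM in Wt1KOΔEC. The control libraries 1 and 3 were the lowest and control replicate 2 lay among the mutants. The log2 fold change was 0.28 (SE 0.26, 95% interval -0.30 to 0.86; adjusted p = 0.736 in edgeR). The processed pseudogene *Gm13717*, which shares 365 exonic bases with *Smo*, had 0 to 3 counts.

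The co-receptors *Gas1* and *Cdon*, which help ligand reach PTCH1, were lower and more scattered. *Gas1* was at 2.48, 8.02 and 1.70 CPM in ControlΔEC and 2.76, 6.99 and 4.55 CPM in Wt1KOΔEC, replicate 2 being the highest in each genotype. Its log2 fold change was 0.23 (SE 0.69; adjusted p = 0.943 in edgeR), and the direction turned when any of 3 libraries was left out. *Cdon* was at 2.06, 0.0203 and 5.17 CPM in ControlΔEC and 1.23, 6.85 and 3.76 CPM in Wt1KOΔEC. The low control value is 1 count in replicate 2, against 48 to 244 counts in the other 5 libraries, and the log2 fold change of *Cdon* was 0.71 (SE 1.28; adjusted p = 0.894 in edgeR), or 0.13 without that library and 0.05 without Wt1KOΔEC replicate 2.

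*Hhip* (chromosome 8), which binds and sequesters ligand and is itself a target of the pathway, had 1 count in ControlΔEC replicate 2, 5 counts in Wt1KOΔEC replicate 3 and 0 counts in the other 4 libraries. As for *Gli1*, no difference was detectable at this depth.

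**Figure D2:**
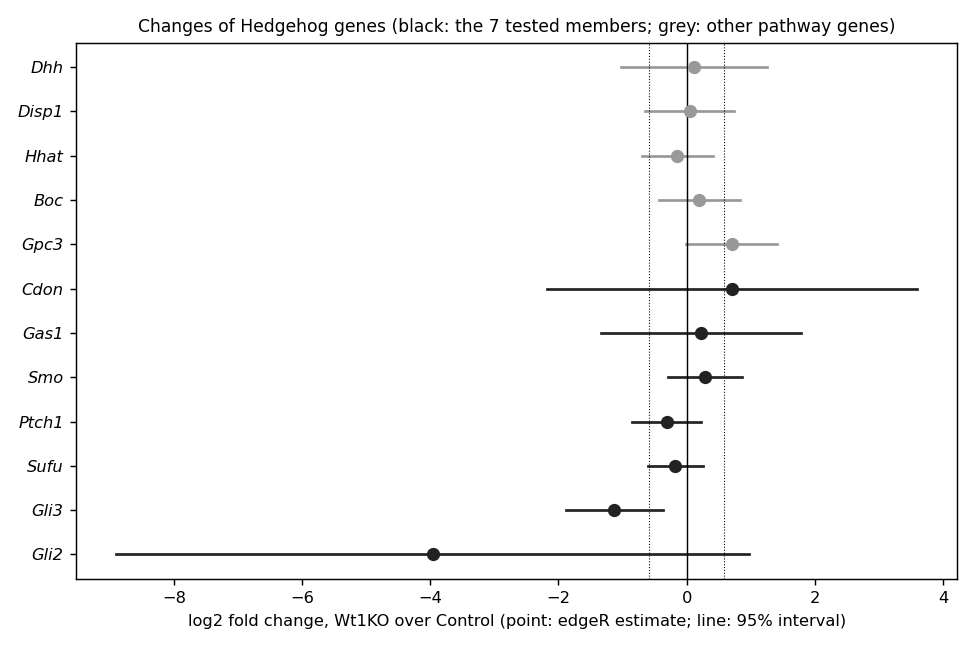
Log2 fold change of Wt1KOΔEC over ControlΔEC (horizontal axis) with its 95% interval from edgeR for the 7 members tested (black) and 5 other pathway genes (grey), dotted lines marking 0.58 in either direction. The interval of *Gli3*, -1.88 to -0.37, lies wholly below 0, those of the other 6 members cross 0, and the interval of *Gli2*, for which 4 of 6 libraries held 3 counts or fewer, is the widest.

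Levels were compared between genes after division by exonic length, as CPM per kb. Exonic length here is the union of the exons of all annotated transcripts of a gene, and the order depends on it. Without this division, the ControlΔEC mean of *Ptch1* (32.5 CPM) was above that of *Smo* (29.1 CPM). The Wt1KOΔEC mean of *Gli3* (10.0 CPM) was likewise above that of *Gas1* (4.77 CPM). In ControlΔEC, *Sufu* (3.48 ± 0.28 CPM per kb; SD, n = 3) and *Smo* (3.30 ± 0.94) were the highest members, *Ptch1* (2.21 ± 0.19) and *Gli3* (2.19 ± 0.58) followed, then *Gas1* (1.37 ± 1.16), *Cdon* (0.260 ± 0.279) and *Gli2* (0.0815 ± 0.0793). The 3 *Smo* libraries lay above the 3 of *Ptch1*, the next in order, whereas *Sufu* and *Smo* overlapped, as did *Ptch1* and *Gli3*, and *Gli3* and *Gas1*. In Wt1KOΔEC the order of the upper members was *Smo* (4.01 ± 0.70), *Sufu* (3.07 ± 0.13), *Ptch1* (1.78 ± 0.45), *Gas1* (1.61 ± 0.72) and *Gli3* (1.00 ± 0.33 CPM per kb). *Gli3* thus stood beside *Ptch1* in the controls and after *Gas1* in the mutants, although neighbouring levels between *Ptch1* and *Cdon* overlapped in the mutants.

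**Figure D3:**
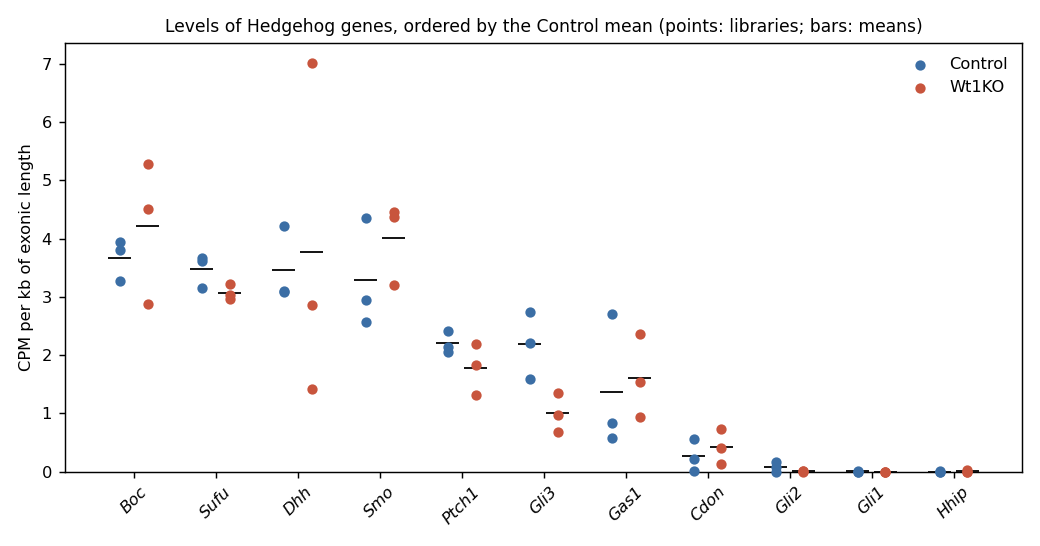
CPM per kb of exonic length (vertical axis) of the 9 members with *Boc* and *Dhh* in ControlΔEC (blue) and Wt1KOΔEC (red), with 1 point per library and black bars at the means, ordered from left to right by the ControlΔEC mean. *Gli1*, *Gli2* and *Hhip* lie at the bottom in both genotypes, and *Gli3* is the gene whose 2 groups of points do not overlap.

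Ratios within a library do not depend on how libraries are scaled to each other. The ratio of *Gli3* to *Ptch1* CPM was 0.773, 0.527 and 0.701 in ControlΔEC and 0.505, 0.255 and 0.417 in Wt1KOΔEC, and the ratio of *Gli3* to *Smo* was 1.06, 0.415 and 0.973 against 0.344, 0.175 and 0.349. Both ratios were lower in every mutant than in every control library, with differences of -0.80 and -1.45 on the log2 scale (exact two-sided permutation p = 0.1 each, 0.2 after adjustment over the 4 ratios computed). The ratio of *Gli3* to *Sufu* differed by -0.97 and that of *Ptch1* to *Smo* by -0.64, and both overlapped between genotypes (exact permutation p = 0.2 each). The ratios with *Gli3* on top carry its lower level over, so they are not a result separate from it. The ratios were not among the comparisons planned.

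**Figure D4:**
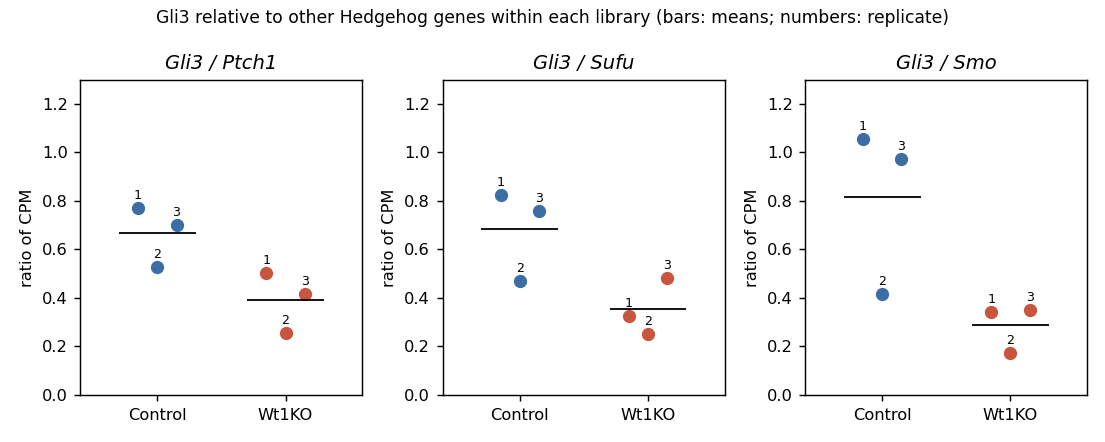
Ratio of *Gli3* CPM to that of *Ptch1*, *Sufu* and *Smo* (vertical axis) in each library, with points numbered by replicate and bars at the means. The mutant libraries lie below the control libraries for the ratios to *Ptch1* and *Smo*, and for the ratio to *Sufu* mutant replicate 3 (0.481) lies just above control replicate 2 (0.472).

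Across the 6 libraries, the log2 CPM of *Smo* and *Gas1* went together most closely among the members (Pearson r = 0.95), and that of *Gli3* was closest to *Ptch1* (r = 0.68). Among 8470 genes with a mean of at least 10 CPM, the 5 whose pattern over the 6 libraries was most like that of *Gli3* were *Rnf13*, *Fam135a*, *Apln*, *Smad2* and *Osbpl2* (r from 0.995 down to 0.985), and for *Smo* they were *Hmga1b*, *Rassf9*, *Cep68*, *Fam120c* and *Mvd* (r from 0.990 to 0.967). These are descriptions over 6 points that share libraries and genotype, found by a search over many genes.

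In the wider pathway, 0 of the 65 genes tested in the 5 lists were differentially expressed in edgeR. By unadjusted p under 0.05 there were 7 of 65, or 10.8%, beside 13.1% of all genes, and DESeq2 called 6 of the 65, or 9.23%, beside 4.83% of all genes. Both counts include *Lrp2*, which passed the filter on low counts through the mutant libraries alone. Of the ligands, *Dhh* was the one with substantial counts, at 610, 920 and 395 in ControlΔEC and 245, 1104 and 320 in Wt1KOΔEC, or 15.3 ± 2.88 and 16.6 ± 12.8 CPM (log2 fold change 0.12, adjusted p = 0.963 in edgeR). Mutant replicates 1 and 2 were the lowest and the highest of the 6. *Dhh* shares 546 exonic bases with *Rhebl1* and 1248 with *Gm49442*, so counts may be divided among them. *Shh* had 41 counts in ControlΔEC replicate 2 and 0 elsewhere, and *Ihh* had 0 counts in every library. *Disp1* and *Hhat*, needed for ligand release and for its lipid modification, were at 24.2 and 16.8 CPM in ControlΔEC and 25.0 and 15.2 CPM in Wt1KOΔEC. The 6 ligand and release genes tested had a median log2 fold change of -0.16.

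Of 9 receptor and co-receptor genes tested, 7 were higher and 2 lower, with a median log2 fold change of 0.28. *Boc*, a co-receptor related to *Cdon*, was at 17.9 ± 1.72 CPM in ControlΔEC and 20.5 ± 5.98 CPM in Wt1KOΔEC. *Lrp2*, an endocytic receptor that binds ligand, had 0 counts in each control library and 22, 27 and 22 in the mutants. As for *Gli2*, no size of change is drawn from these counts. *Lrp2* was under 1 CPM in every library and passed the filter on low counts through the mutant libraries alone, so its direction, and its place among the 7 higher, were fixed by the filter.

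Of 19 GLI factors and regulators tested, 2 had an unadjusted p under 0.05 and both were lower, *Gli3* and *Iqce*. Of all genes, 7.12% were lower at this p, and 13.1% passed in either direction. *Iqce* (log2 fold change -0.68, adjusted p = 0.378 in edgeR) codes for a protein of the EVC complex at the cilium. In the same list *Evc2* was higher (0.81, adjusted p = 0.423 in edgeR), every mutant library lying above every control library. *Evc* and *Efcab7* were at 0.32 each (SE 1.38 and 1.31; adjusted p = 0.964 and 0.962 in edgeR), and both overlapped between genotypes. *Evc* had 0 counts in ControlΔEC replicate 2 and *Efcab7* had 0 in ControlΔEC replicate 3, so no direction is drawn from either. Of the kinases that phosphorylate GLI proteins, the 3 most abundant had mean levels in ControlΔEC and Wt1KOΔEC of 278 and 283 CPM (*Csnk1a1*), 99.6 and 96.6 CPM (*Gsk3b*) and 70.1 and 67.5 CPM (*Prkacb*), and the ubiquitin ligase adaptor *Spop* of 92.3 and 90.7 CPM. The log2 fold changes of these 4 genes ranged from -0.06 to 0.03. Of the kinases of lower level, *Prkaca* (19.4 and 15.6 CPM, log2 fold change -0.31) and *Csnk1e* (30.8 and 36.0 CPM, log2 fold change 0.22) had larger differences, and neither passed the test (adjusted p = 0.737 and 0.720 in edgeR). *Dyrk2* (23.5 and 25.0 CPM) was at 0.09, and *Ulk3* and *Stk36* were at -0.32 and -0.76. The median of the list was -0.06.

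Of 9 GLI target genes tested, 3 had an unadjusted p under 0.05, beside 13.1% of all genes, and these went in different directions. *Ccnd2*, a cyclin of the G1 phase, was at 129, 183 and 160 CPM in ControlΔEC and 265, 284 and 254 CPM in Wt1KOΔEC (log2 fold change 0.77, SE 0.17; adjusted p = 0.149 in edgeR, 0.0011 in DESeq2). *Bcl2*, an inhibitor of apoptosis, was at 37.7, 44.3 and 29.7 CPM against 17.4, 15.4 and 20.0 CPM (log2 fold change -1.08, SE 0.23; adjusted p = 0.140 in edgeR, 0.00111 in DESeq2). *Snai1*, a zinc finger repressor, was at 3.13 ± 0.858 and 7.48 ± 1.11 CPM (log2 fold change 1.26; adjusted p = 0.290 in edgeR, 0.0458 in DESeq2). For these 3 genes and for *Foxc2* (14.2 ± 2.23 and 19.3 ± 4.47 CPM; adjusted p = 0.551 in edgeR) every mutant library lay on one side of every control library, as for 19.3% of all genes, while *Ptch1*, *Gli1* and *Hhip*, the targets most specific to the pathway, overlapped or were at the floor. *Ccnd1* was at 227 and 212 CPM and *Mycn* at 45.2 and 39.8 CPM.

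Of 25 genes in the list of primary cilium transport, 12 were higher, the member *Smo* among them, and 13 lower. The median log2 fold change was 0.00, and 1 gene had an unadjusted p under 0.05 in edgeR, beside 13.1% of all genes. The 1 gene was *Ift140*, a subunit of the retrograde transport complex, at 17.3, 18.0 and 19.8 CPM in ControlΔEC and 3.30, 6.54 and 11.4 CPM in Wt1KOΔEC (log2 fold change -1.38, SE 0.42; adjusted p = 0.243 in edgeR, 0.0444 in DESeq2).

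**Figure D5:**
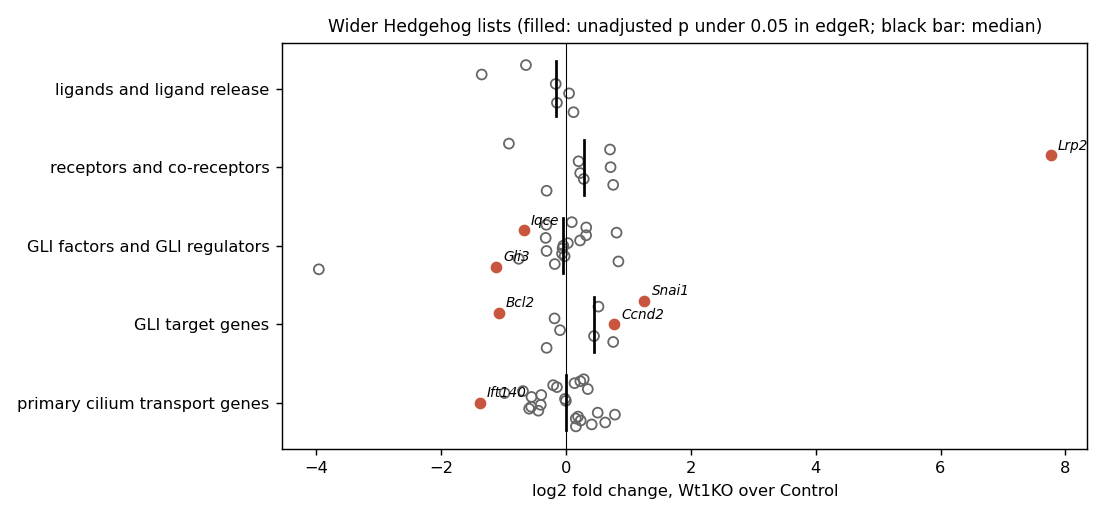
Log2 fold change of Wt1KOΔEC over ControlΔEC (horizontal axis) for the tested genes of 5 Hedgehog lists, which share some members, with filled and named points for the 7 genes at an unadjusted edgeR p under 0.05 and black bars at the list medians, which run from -0.16 to 0.45. The fitted value of *Lrp2* depends on the prior count because its control libraries held no count, *Lrp2* passed the low-count filter through the mutants alone, and *Gli3* is the 1 filled point that is a member.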

How the data were processed

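Low-input RNA-Seq libraries were made by the authors with SMART-seq2 and Nextera XT, which keep no strand, and sequenced in pairs. Per the study's methods, reads were mapped to GRCm39 with STAR 2.7.8a and genes of GENCODE vM27 were quantified with RSEM 1.3.0; the submitters' processing notes name GRCm38 instead. The table deposited by the authors holds the expected counts from RSEM, already whole numbers and not normalized. Genotype and replicate came from the sample titles.

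The analysis used edgeR 4.0.16 in R 4.3.3, with TMM normalization. Genes reaching 10 counts in 2 or more libraries entered the fit, and the quasi-likelihood F test was adjusted by Benjamini-Hochberg over all 16296 of them. CPM are TMM-normalized. DESeq2 1.42.0, the package the study names in an earlier version, was an alternative. It was run on all 55416 genes, on those with a count, and on the genes edgeR tested; the latter 2 runs were added after the data were seen, and the whole-table run was settled on once the other 2 were known. limma 3.58.1 (voom), other scalings and filters, an offset for length and GC content, the replicate block and leaving out each library were also tried, and the scripts were tested on simulated data. Exonic lengths and gene positions came from GENCODE vM39 on GRCm39, and promoter windows from RefSeq on GRCm38.p6.

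The members and lists were chosen with earlier results of these data known. Named genes were every member, called genes of the ligand, receptor, regulator and target lists, up to 4 genes per list with the highest mean CPM or at the floor throughout, *Wt1*, and the 5 genes most like *Gli3* and *Smo*. *Lrp2*, *Iqce*, *Bcl2*, *Snai1*, *Ift140*, *Shh*, *Foxc2*, *Prkaca*, *Csnk1e*, *Evc2*, *Evc*, *Efcab7*, *Dyrk2*, *Ulk3* and *Stk36* fell outside the rule and were chosen after their values were seen, as were the 4 motif strings. Nothing in the labels ties a library to one embryo or a pool, so p-values measure the spread between these libraries. The 95% intervals come from the fitted standard errors.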

Additional observations from a re-analysis of the deposited data

How the results depend on the processing

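*Gli3* kept its direction under all 21 alternatives that gave a value, with log2 fold changes from -1.40 to -0.92 and adjusted p-values from 0.0375 to 0.541. *Gas1*, which ranged from -0.16 to 1.19 when 1 library was left out, turned to -0.03 without ControlΔEC replicate 1, -0.14 without ControlΔEC replicate 3 and -0.16 without Wt1KOΔEC replicate 2; the other tested members kept their direction where they gave a value. *Cdon*, 0.71 in the analysis reported, was 2.56 with limma-voom, and without 1 library ran from 0.05 (Wt1KOΔEC replicate 2) to 1.93 (ControlΔEC replicate 3), with 0.13 without ControlΔEC replicate 2. *Gli2* gave none under filterByExpr, with 10 counts in every library or without ControlΔEC replicate 2 or 3, and *Cdon* none with 10 counts in every library. The count of members differentially expressed, 0 in the analysis reported, was 1 with DESeq2 on the whole table or on genes with a count and 1 by unadjusted p. For the pathway lists it was 6 with DESeq2 on the whole table or on genes with a count, 3 with DESeq2 after the count filter, 3 with edgeR's likelihood ratio test, 2 with no filter and 7 by unadjusted p. With library size as the only scaling, which moved the median log2 fold change of all genes to -0.18, 3 members did not overlap between genotypes, *Ptch1* and *Sufu* joining *Gli3*, and calls split into 5 higher and 6 lower in place of 8 and 4.

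Over all genes, 12 were called in the analysis reported. The count was 767, 759 and 599 with DESeq2 on the whole table, on genes with a count and after the count filter, 432 with the likelihood ratio test, 296 with no filter, 113 with 10 counts in every library, 7 with the length and GC offset and 1652 by unadjusted p. Leaving out 1 library gave 2 to 37. The cause of these differences was not tested. With the replicate block 5 genes were called and *Gli3* was at -1.14 (adjusted p = 0.239). With the block and the offset together 5 were called and *Gli3* was at -1.08 (adjusted p = 0.305). Same-numbered libraries deviated from their group means with correlations of 0.067, 0.213 and 0.099, only 1 above 0.1, so the numbers were not taken as pairs, although each of the 6 libraries correlated best with its own number.

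Depth limits *Gli1*, *Hhip* and *Gli2*: at or under 3 counts in a library, presence and absence cannot be told apart.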
